A study of Mus musculus with 9 samples.

Results

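Amino acid transporters and the enzymes that make amino acids were examined in Lewis lung carcinoma (LLC) cells with and without CD47, a cell surface receptor best known as a signal against phagocytosis. The group holds 37 genes, 22 of them solute carriers and 15 of them enzymes, taken by symbol for their function from the 50813 genes in the deposited count table. It was chosen with earlier results of these data known, so its counts describe these data and are not an independent test. All 37 symbols were found, each on 1 row, and 34 passed the filter on low counts and were among the 14593 genes tested. RNA was sequenced from 3 libraries of WT LLC cells, described by the submitters as clonal, and from 3 libraries each of the CD47 KO clones E3 and E5. LLC is a mouse lung tumour line, and the cells used here stably express luciferase. The KO clones were grown from single cells after electroporation of a Cas9 ribonucleoprotein with a guide against Cd47, and all cells were cultured in vitro in DMEM with fetal bovine serum, glutamine and antibiotics. Each KO line is 1 clone, so the spread between its libraries is that within 1 clone, and an effect of the edit and a difference between clones cannot be told apart.

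Cells take up amino acids through families of membrane carriers with overlapping substrates, and some of these carriers work only in a complex with the heavy chain Slc3a2. Non-essential amino acids can also be made from intermediates of glycolysis and the citric acid cycle, serine from a glycolytic intermediate and asparagine and proline from citric acid cycle carbon. Many of these genes are known targets of the transcription factor ATF4, which is translated when the initiation factor eIF2alpha is phosphorylated, as in amino acid shortage, and which binds C/EBP-ATF response elements. Rapidly growing tumour cells are known for high expression of Slc7a5, Slc1a5 and the serine synthesis enzymes.

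Total counts were 44257404 to 55095219 per library, and values below are TMM-scaled CPM, the counts of a gene relative to the effective size of its library. Cd47 itself was at 182 ± 3.92 CPM in WT cells, 44.6 ± 6.87 CPM in clone E3 and 17.4 ± 1.66 CPM in clone E5 (mean ± SD, n = 3 libraries in each line). Mesenchymal markers (Vim, Cdh2, Fn1 and Sparc) summed to 6182 to 8660.0 CPM over the 9 libraries, the 6 haematopoietic markers to at most 0.0646 CPM and the 4 endothelial markers to at most 0.190 CPM. Of the epithelial markers Epcam had 0 counts in every library and Cdh1 at most 6, while the sum of all 5 was 451 to 459 CPM in WT cells, 127 to 199 CPM in E3 and 896 to 958 CPM in E5, carried by Krt8 and Krt18. The part of these markers in the differences below was not tested, and in bulk RNA fewer cells of a kind and less RNA per cell cannot be told apart. Replicate 3 of clone E3 stood apart from its replicates. Against the mean of replicates 1 and 2, long genes (exons of at least 8185 bp in all) lay at a median of -0.37 and short genes (up to 4855 bp) at 0.29 on the log2 scale, while in WT cells and clone E5 no such median passed 0.029 in size. Counts are therefore also given without that library, and the part of transcript length in them was not tested.

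In clone E3 many of these genes, carriers and enzymes alike, were lower than in WT cells. Of the 34 tested, 19 were lower and 2 higher at a false-discovery rate (FDR) under 0.05, which is 55.9% and 5.88%, against 14.7% and 15.7% of all genes tested (edgeR's quasi-likelihood test, Benjamini-Hochberg adjustment). Differentially expressed genes (DEGs), which in addition changed by more than 1 on the log2 scale, were 12 lower and 2 higher members, beside 4.39% and 5.43% of all genes. The median log2 fold change of the 34 was -0.71, and that of all tested genes was 0.010. Enzymes had a median of -0.87 with 10 of 15 lower, and carriers a median of -0.40 with 9 of 19 lower. All 3 E3 libraries lay below all 3 WT libraries for 19 members and above them for 3, beside 23% and 22.4% of all genes. Without replicate 3 of clone E3 there were 21 lower and 5 higher members, where 21.5% and 21.8% of all genes passed in these directions.

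In clone E5 fewer members passed the test, and those past the fold threshold were Slc7a3, Slc7a7, Slc43a1, Slc43a2, Slc1a3 and Cbs, all lower. All but Slc7a3 were the least abundant tested members in WT cells, with means of 0.750 to 5.39 CPM. At the same FDR, 9 members were lower and 2 higher, which is 26.5% and 5.88%, against 11.7% and 8.96% of all genes. DEGs were 6 lower members and 0 higher ones, beside 5.52% and 2.69% of all genes. The E5 libraries all lay below the WT libraries for 13 members and above for 8, beside 28.4% and 27% of all genes. The median log2 fold change was -0.17, and -0.00231 over all genes. Both comparisons use the same WT libraries and, in the fit, 1 estimate of spread. Without replicate 3 of clone E3 the members that passed in E5 were 12 lower and 6 higher, where 21.2% and 20.8% of all genes passed, and all 11 members called with every library were among them.

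**Figure D1:**
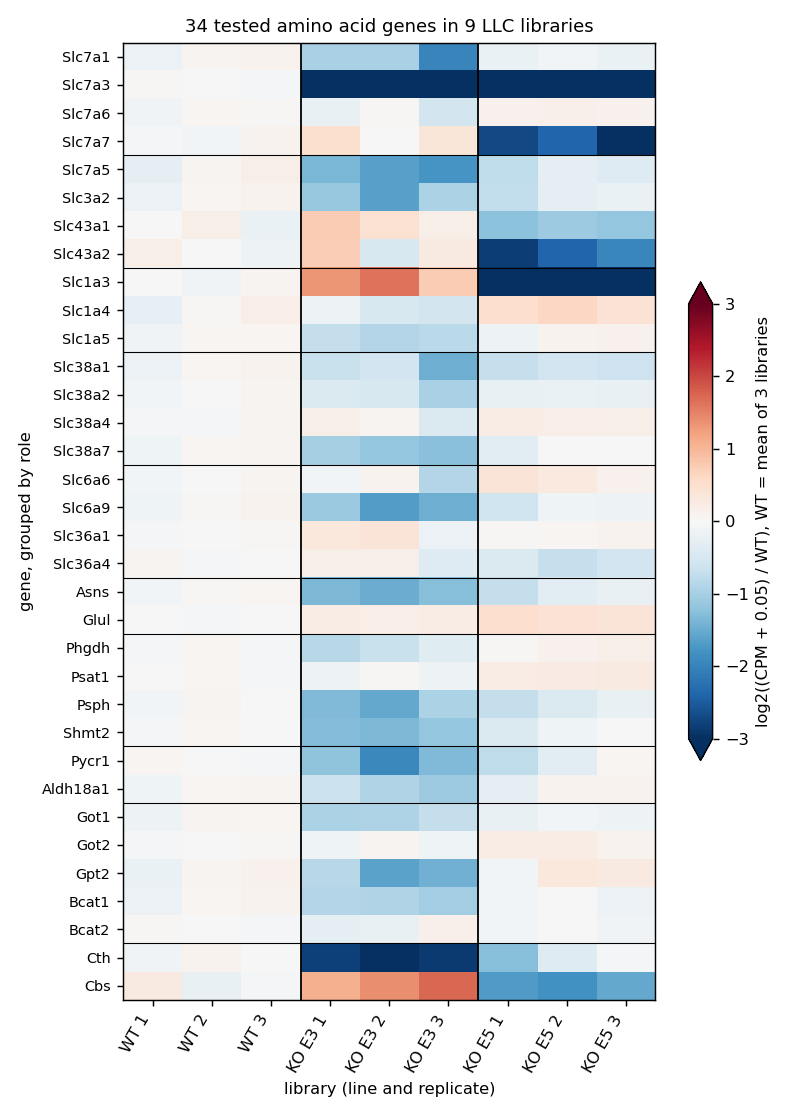
Heat map of the 34 tested genes (rows, grouped by role) in the 9 libraries (columns), coloured by log2 of CPM plus 0.05 relative to the mean of the 3 WT libraries and capped at 3 in either direction. Blue cells fill most rows of clone E3, while in clone E5 the deepest blue lies in Slc7a3, Slc7a7, Slc43a2, Slc1a3 and Cbs.

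The clones were also compared with each other, which tests whether the 2 lines differ. Clone E5 was higher than clone E3 for 19 members and lower for 6, or 55.9% and 17.6%, beside 14.7% and 17.2% of all genes. At the fold threshold 8 were higher and 5 lower (3.49% and 7.52% of all genes). All E5 libraries lay above all E3 libraries for 24 members and below for 6 (21.8% and 22.7% of all genes). The members' median difference was 0.60 (E5 minus E3, log2), against -0.011 over all genes. Without replicate 3 of clone E3 the counts were 25 higher and 7 lower, against 22.4% and 21.7% of all genes. With upper-quartile scaling the members' counts were 17 higher and 6 lower, where 11.7% and 20.9% of all genes passed. That scaling moved the share of higher genes among all calls from 46.1% to 35.8%.

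Summed over all 37 genes, members held 9717, 10971 and 11114 CPM in the WT libraries, 6138, 5916 and 5439 CPM in clone E3 and 8754, 10137 and 10101 CPM in clone E5. The E3 libraries lay below all others, and 1 E5 library lay below all WT libraries. To compare levels between genes, CPM were divided by the length of all annotated exons of the gene together, in kilobases (FPKM). That length can exceed the transcript present, which was not measured, so the order between genes depends on the annotation. Asns and Phgdh, at 676 and 700 CPM in WT cells, came to 57.8 and 248 FPKM over 11709 and 2826 bp. On that scale Slc7a5 was the most abundant member in WT cells, at 439 ± 68.3 FPKM (SD, n = 3), followed by Phgdh at 248 ± 8.20 and Shmt2 at 245 ± 9.07, which do not differ beyond their spread. Slc3a2 (163 ± 15.9), Psat1 (132 ± 3.99) and Aldh18a1 (105 ± 8.08) came next. In clone E3 Phgdh was highest at 163 ± 27.4 FPKM and Slc7a5 was at 146 ± 21.1, within their spread of each other, and in clone E5 the order Slc7a5, Phgdh, Shmt2 was that of WT cells. The 5 least abundant tested members in WT cells, Slc43a2, Slc43a1, Slc7a7, Slc1a3 and Cbs, lay between 0.0662 ± 0.0122 and 0.433 ± 0.0511 FPKM.

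Since many members are known ATF4 targets, promoters were searched for the letters of a C/EBP-ATF response element, TGATGCAA, and for the looser TGATGNAA, which includes it, on both strands. The window ran from 250 bases before to 50 after the start of the canonical GENCODE vM39 transcript in GRCm39, and 215 of 21770 protein-coding promoters (0.988%) held the strict and 836 (3.84%) the looser form. Of the 19 members lower in E3, 3 (15.8%) held the strict form, Slc38a1, Pycr1 and Got1, and 4 (21.1%) the looser one, with Gpt2 added. None of the 15 other tested members held either. Beside them stand 4 of 20 tRNA synthetases (20%) and 4 of 16 genes of a list of Atf4 with its partners and targets (25%) with the strict form, and 0 of 10 folate enzymes (0%) and 1 of 29 other plasma membrane carriers (3.45%), the lists described further on. The stretches that hold the matches are printed 5′ to 3′ on the strand of the gene, all 5 genes but Gpt2 being on the minus strand, with the matched letters in capitals, and Slc7a11, a cystine carrier outside the group, is added because it holds 2 matches:
Slc38a1 (chr15:96540301-96540360): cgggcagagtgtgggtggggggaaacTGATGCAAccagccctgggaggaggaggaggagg
Pycr1 (chr11:120534644-120534703): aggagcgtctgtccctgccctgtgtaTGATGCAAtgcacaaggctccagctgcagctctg
Got1 (chr19:43513113-43513172): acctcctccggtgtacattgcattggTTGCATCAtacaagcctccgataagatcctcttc
Gpt2 (chr8:86218813-86218872): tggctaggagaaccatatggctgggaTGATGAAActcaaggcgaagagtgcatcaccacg
Slc7a11 (chr3:50398095-50398154): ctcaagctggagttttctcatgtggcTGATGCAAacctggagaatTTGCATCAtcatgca
The matches start 56, 79, 77 and 149 bases before the transcript start in Slc38a1, Pycr1, Got1 and Gpt2, and 65 and 46 before it in Slc7a11. A match describes the letters and is not evidence of binding, and where none was found, as for Asns, Shmt2, Slc7a5 or Cth, it says only that these letters are not in this window.

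Among carriers of cationic amino acids, Slc7a1, which imports arginine and lysine and is the main carrier of this kind in most cells, was at 362, 431 and 440.0 CPM in WT cells, 209.9, 209 and 104 CPM in clone E3 and 355, 386 and 355 CPM in clone E5. The E3 libraries lay below the WT and E5 libraries, with replicate 3 the lowest. The log2 fold change in E3 was -1.24 (standard error 0.23, adjusted p = 0.0025) and -0.97 without that replicate, which is past the FDR but short of the fold threshold. In E5 it was -0.17 (standard error 0.22, adjusted p = 0.649).

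Slc7a3, a related carrier known mainly from brain, fell most of all members in E3 and was second to Slc1a3 in E5. It was at 47.7, 47.3 and 45.6 CPM in WT cells, 0.980, 0.909 and 0.814 CPM in clone E3 and 1.25, 1.08 and 1.42 CPM in clone E5. Every KO library lay far below every WT library, by 51.8-fold in E3 and 37.2-fold in E5 on the fitted scale. The log2 fold changes were -5.70 (standard error 0.14, adjusted p = 1.12e-08) in E3 and -5.22 (standard error 0.13, adjusted p = 4.70e-09) in E5. Slc7a3 is a protein-coding gene on the X chromosome (ENSMUSG00000031297.15, chrX:100122827-100129626, GRCm39), and the 50 tested genes around it had median log2 fold changes of -0.074 and 0.20. Slc7a2 had 0 counts in every library.

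The exchangers Slc7a6 and Slc7a7 move cationic amino acids out of cells in trade for neutral ones and both need Slc3a2. Slc7a6 was at 49.1 to 79.5 CPM over the 9 libraries and passed in no comparison. Slc7a7, the less abundant of them, was at 1.64, 1.60 and 1.84 CPM in WT cells, 2.38, 1.67 and 2.20 CPM in clone E3 and 0.215, 0.282 and 0.166 CPM in clone E5. Its E5 libraries lay below all others while the E3 and WT ranges overlapped, and the log2 fold change was -2.93 (standard error 0.26, adjusted p = 2.48e-05) in E5 and 0.30 (standard error 0.20, adjusted p = 0.291) in E3. The gene overlaps Oxa1l, which had more counts (65.2 ± 2.90 CPM in WT cells) and changed by -0.073 in E5 (adjusted p = 0.68), so the split of reads between these genes is uncertain.

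Slc7a5, which carries leucine and other large neutral amino acids, was at 1391, 1782 and 1890.4 CPM in WT cells, 652, 539 and 494 CPM in clone E3 and 991, 1374 and 1290.3 CPM in clone E5. In E3 every library was below every WT and E5 library, and the E5 libraries also lay below all WT libraries. The log2 fold change was -1.59 (standard error 0.17, adjusted p = 0.000111) in E3 and -0.47 (standard error 0.16, adjusted p = 0.0692) in E5, where the test was not passed. Slc7a5 passed in E5 with DESeq2, without the low-count filter and with only clone E5 and WT cells in the fit. It also passed there without replicate 3 of clone E3 and without WT replicate 1.

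Its partner Slc3a2, the heavy chain that brings Slc7a5 to the cell surface, was at 678, 792 and 817 CPM in WT cells, 345, 246 and 391 CPM in clone E3 and 455, 625 and 666 CPM in clone E5. The ranges were again ordered E3, E5 and WT without overlap, at a log2 fold change of -1.22 (standard error 0.19, adjusted p = 0.000975) in E3. In E5 it was -0.39 (standard error 0.19, adjusted p = 0.174). With only clone E5 and WT cells in the fit Slc3a2 passed the FDR in E5. The ratio of Slc7a5 to Slc3a2 per length was 2.49, 2.73 and 2.81 in the WT libraries, 2.30, 2.66 and 1.54 in E3 and 2.64, 2.67 and 2.35 in E5. These ranges overlapped, and the exact permutation p was 0.2 for E3 against WT (two-sided, 3 against 3, smallest possible 0.1).

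Slc43a1 and Slc43a2, facilitators of large neutral amino acids that need no heavy chain, were scarce and fell in clone E5. Slc43a1 was at 2.04, 2.31 and 1.77 CPM in WT cells, 3.48, 2.81 and 2.29 CPM in clone E3 and 0.840, 0.933 and 0.888 CPM in clone E5. Slc43a2 was at 6.07, 5.28 and 4.81 CPM in WT cells, 8.98, 3.82 and 6.49 CPM in clone E3 and 0.711, 0.998 and 1.35 CPM in clone E5. For both genes each E5 library lay below each library of the other lines, and the log2 fold change in E5 was -1.20 (standard error 0.21, adjusted p = 0.00231) for Slc43a1 against -2.39 (standard error 0.32, adjusted p = 0.00049) for Slc43a2. In E3 they were 0.49 (adjusted p = 0.0786) and 0.26 (adjusted p = 0.536). Slc7a8 was at most 3 counts in any library.

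In the Slc1 family, Slc1a3, a high-affinity glutamate carrier typical of glia, went in opposite directions in the clones (ENSMUSG00000005360.15, chr15:8663608-8740248, GRCm39). It was at 3.43, 3.11 and 3.59 CPM in WT cells, 8.48, 10.6 and 5.76 CPM in clone E3 and 0.0215, 0.0217 and 0 CPM in clone E5, and the E5 values are 1, 1 and 0 counts. All E3 libraries lay above and all E5 libraries below the WT libraries. In E3 it was 2.45-fold higher (log2 1.29, standard error 0.22, adjusted p = 0.00166). In E5 the ratio of WT to E5 counts was 247 (95% exact interval 68.1 to 2050.0, counting error only), and the fitted log2 value of -7.70 (adjusted p = 1.99e-06) depends on the prior count of the fit. The 50 tested genes around Slc1a3 had a median of -0.035 in E5.

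Slc1a4 and Slc1a5 exchange small neutral amino acids, Slc1a5 being a main importer of glutamine in tumour cells. Slc1a5 was lower in E3, from 248 ± 16.6 to 142 ± 8.74 CPM (SD, n = 3 each), with a log2 fold change of -0.80 (standard error 0.11, adjusted p = 0.000406), and was 0.033 in E5 (adjusted p = 0.868). Slc1a4 did not pass in E3, at -0.40 (adjusted p = 0.0525). It did pass there with DESeq2, without the low-count filter, and without WT replicate 1 or replicate 1 or 3 of clone E3. In E5 Slc1a4 rose by 0.50 (adjusted p = 0.0276), a call lost in 5 of the 9 fits that left out 1 library and with a replicate block. The clones differed by 0.90 (standard error 0.14, adjusted p = 0.000847). The glutamate carrier Slc1a1 was at most 4 counts in any library.

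The Slc38 carriers take up glutamine and other small neutral amino acids with sodium, except Slc38a7, which exports glutamine from lysosomes. Slc38a7 was at 84.2, 96.0 and 97.4 CPM in WT cells, 45.9, 41.4 and 38.6 CPM in clone E3 and 72.5, 91.0 and 92.5 CPM in clone E5. Its E3 libraries were the lowest, at a log2 fold change of -1.14 (standard error 0.12, adjusted p = 0.000118), and E5 was at -0.12 (adjusted p = 0.554). Slc38a1 was lower in both clones, by -0.86 (adjusted p = 0.00872) and -0.63 (adjusted p = 0.0462), the latter call being lost in 7 of the 9 fits that left out 1 library. Slc38a2, known to rise on amino acid shortage, was lower in E3 by -0.61 (adjusted p = 0.00777) and was -0.21 in E5 (adjusted p = 0.316). Without replicate 3 of clone E3 Slc38a2 also passed in E5. Slc38a4, at 83.6 to 132 CPM over the 9 libraries, passed in no comparison.

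The glycine carrier Slc6a9 was at 191, 218 and 225 CPM in WT cells, 97.9, 65.6 and 76.8 CPM in clone E3 and 139, 191 and 191 CPM in clone E5. It was lowest in E3, with a log2 fold change of -1.40 (standard error 0.17, adjusted p = 0.000241), and at -0.28 in E5 (adjusted p = 0.273). B4galt2, which overlaps it, with 30.8% as many counts, rose in E3, at 0.42 (adjusted p = 0.00341). The taurine carrier Slc6a6 (214 to 514 CPM) and the proton-coupled carrier Slc36a1 (18.7 to 27.7 CPM) passed in no comparison, and Slc36a4, also proton-coupled, was lower in E5 by -0.57 (adjusted p = 0.025), a call lost in 5 of those 9 fits, and 0.015 in E3 (adjusted p = 0.957).

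**Figure D2:**
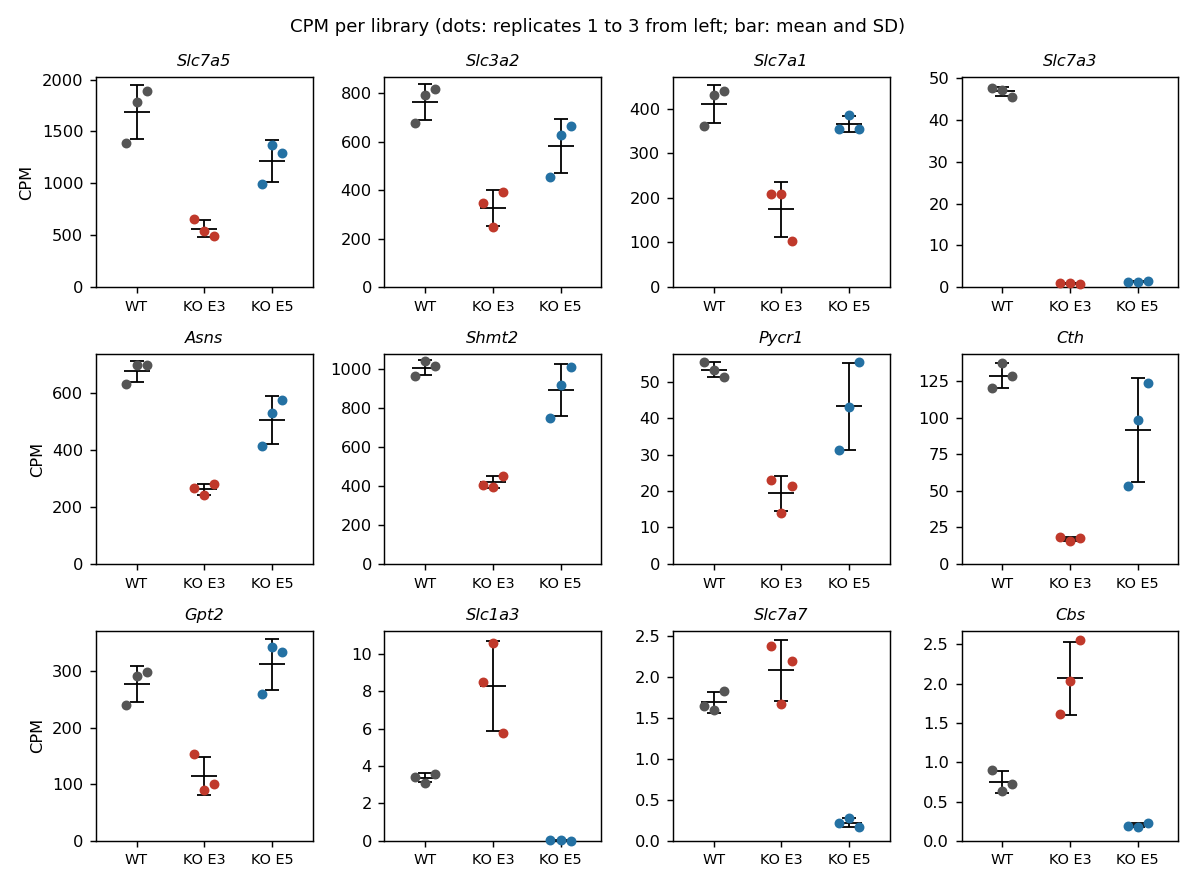
CPM in each library for 12 of the genes, with the mean and SD of 3 libraries as bars and every axis starting at 0. In 8 panels (Slc7a5, Slc3a2, Slc7a1, Asns, Shmt2, Pycr1, Cth and Gpt2) clone E3 is lowest, in Slc7a3 both clones are near 1 CPM, and in Slc1a3, Slc7a7 and Cbs clone E5 is lowest.

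Among the enzymes, Asns, which makes asparagine from aspartate and is a standard readout of ATF4, was at 633, 697 and 698 CPM in WT cells, 266, 242 and 279 CPM in clone E3 and 413, 530.2 and 577 CPM in clone E5. The E3 libraries were lowest and the E5 libraries lay between them and WT cells, with no overlap between lines. Asns was 2.58-fold lower in E3 (log2 -1.37, standard error 0.13, adjusted p = 5.82e-05) and 1.34-fold lower in E5 (log2 -0.42, standard error 0.13, adjusted p = 0.0434), and the E5 call was lost in 6 of the 9 fits that left out 1 library and with upper-quartile scaling (adjusted p = 0.0518). Without replicate 3 of clone E3 the E5 call of Asns was kept (adjusted p = 0.0076). The clones differed by 0.95 (standard error 0.13, adjusted p = 0.00037). Glul, which makes glutamine, did not pass in E3, at 0.22 (adjusted p = 0.065), and rose in E5 by 0.45 (adjusted p = 0.00316).

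Serine is made in a chain of reactions by Phgdh, Psat1 and Psph, and Shmt2 turns it into glycine in mitochondria while passing a carbon unit to folate. Phgdh was at 686, 727 and 687 CPM in WT cells, 393, 442 and 545 CPM in clone E3 and 711, 768 and 788 CPM in clone E5. Psat1 was at 769, 804 and 759.7 CPM in WT cells, 701, 790.4 and 697 CPM in clone E3 and 914, 923 and 939 CPM in clone E5. Psph, the last enzyme of the chain, was at 104, 116 and 109 CPM in WT cells, 43.8, 37.7 and 56.9 CPM in clone E3 and 66.3, 81.4 and 93.8 CPM in clone E5. In E3 the first and last enzymes were below WT cells in every library, and Psat1 was not, since its ranges overlapped.

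The log2 fold changes in E3 were -0.60 (standard error 0.12, adjusted p = 0.00431) for Phgdh, -0.092 (standard error 0.091, adjusted p = 0.483) for Psat1 and -1.25 (standard error 0.17, adjusted p = 0.000406) for Psph. In E5 none of them passed, at 0.11, 0.25 and -0.44. Psat1 and Psph passed in E5 without replicate 3 of clone E3. The ratio of Psph to Psat1 per length was 0.108, 0.115 and 0.115 in WT cells, 0.05, 0.0382 and 0.0654 in E3 and 0.0581, 0.0706 and 0.0799 in E5, lower in both clones than in any WT library (exact permutation p = 0.1 for each, two-sided, the smallest that 3 against 3 allows). Psph overlaps Cct6a, which held 526% as many counts over the 9 libraries and changed by 0.033 in E3 and -0.12 in E5, so some of its counts are uncertain.

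Shmt2 was at 965, 1039 and 1013 CPM in WT cells, 407, 396 and 453 CPM in clone E3 and 749, 917 and 1010.1 CPM in clone E5. The E3 libraries lay below all others, and the E5 and WT ranges overlapped. The log2 fold change was -1.27 (standard error 0.12, adjusted p = 6.15e-05) in E3 and -0.17 (standard error 0.12, adjusted p = 0.357) in E5. Cytosolic Shmt1, which is not one of the members, changed in E3 by -0.77 (adjusted p = 0.000249), and the ratio of Shmt2 to Shmt1 per length was 17.7, 16.4 and 16.5 in WT cells against 12.4, 10.9 and 12.6 in E3.

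Proline is made from glutamate by Aldh18a1 and then by Pycr1, both in mitochondria. Aldh18a1 was at 498, 564 and 576 CPM in WT cells, 351, 291 and 258 CPM in clone E3 and 454, 585 and 586 CPM in clone E5. Pycr1 was at 55.5, 53.2 and 51.3 CPM in WT cells, 22.9, 13.8 and 21.4 CPM in clone E3 and 31.3, 43.1 and 55.3 CPM in clone E5. For both enzymes the E3 libraries lay below all others, and the E5 and WT ranges overlapped. In E3 Aldh18a1 changed by -0.87 (standard error 0.14, adjusted p = 0.00137) on the log2 scale and Pycr1 by -1.46 (standard error 0.22, adjusted p = 0.000827). In E5 they were -0.013 (adjusted p = 0.963) and -0.30 (adjusted p = 0.368).

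Transaminases pass amino groups between amino acids and keto acids. Gpt2, the mitochondrial alanine transaminase, was at 240.3, 291 and 299 CPM in WT cells, 154, 90.7 and 101 CPM in clone E3 and 259, 342 and 333 CPM in clone E5. It was lower in every E3 library, at a log2 fold change of -1.26 (standard error 0.20, adjusted p = 0.000994), and 0.17 in E5 (adjusted p = 0.596). For alanine, aspartate and branched-chain amino acids both a cytosolic and a mitochondrial enzyme were measured. Gpt, the cytosolic alanine transaminase, which is not one of the members, did not fall in E3. It was at 0.31 (adjusted p = 0.0802), with every E3 library above every WT library. In the other pairs the cytosolic enzymes fell in E3, Got1 by -0.86 (adjusted p = 0.000232) and Bcat1 by -0.95 (adjusted p = 0.000167). The mitochondrial ones were at -0.058 (Got2, adjusted p = 0.687) and -0.10 (Bcat2, adjusted p = 0.556).

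The difference within the aspartate pair and the branched-chain pair was read from their ratio per length, and that of Gpt2 to Gpt was not computed. Got1 to Got2 was 0.521, 0.575 and 0.563 in WT cells, 0.316, 0.276 and 0.367 in E3 and 0.405, 0.444 and 0.462 in E5. Bcat1 to Bcat2 was 1.49, 1.81 and 1.95, 1.13, 1.09 and 0.754 and 1.74, 1.75 and 1.65 in the same order. In both pairs E3 lay below WT cells without overlap. Of 6 such gene pairs compared, 5 gave the smallest exact permutation p for E3 against WT, 0.1 (two-sided, 0.12 after Benjamini-Hochberg adjustment), so that no pair could pass at 0.05. For E5 against WT the adjusted p was 0.2 to 0.8.

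Cbs and Cth make cysteine from homocysteine in successive steps. Cth (ENSMUSG00000028179.13, chr3:157599885-157630714, GRCm39) was at 120.5, 138 and 129 CPM in WT cells, 18.5, 15.9 and 17.5 CPM in clone E3 and 53.2, 98.4 and 124 CPM in clone E5. After Slc7a3 it was the member that fell most in E3, by 7.45-fold (log2 -2.90, standard error 0.26, adjusted p = 3.83e-05). The E5 libraries ranged widely and overlapped WT cells, with a log2 fold change of -0.49 (standard error 0.24, adjusted p = 0.179), and the clones differed by 2.41 (standard error 0.25, adjusted p = 6.19e-05). Replicate 1 of clone E5 was the lowest of its line for 20 of the 34 tested members, and WT replicate 1 for 23 of its line.

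Cbs, the enzyme before Cth, was near the lower end of detection and rose in E3 while it fell in E5. It was at 0.901, 0.631 and 0.718 CPM in WT cells, 1.62, 2.03 and 2.55 CPM in clone E3 and 0.194, 0.174 and 0.222 CPM in clone E5. These are 30 to 45 counts per WT library, 81 to 116 in E3 and 8 to 12 in E5, with no overlap between lines. The log2 fold change was 1.45 (standard error 0.23, adjusted p = 0.00118) in E3 and -1.91 (standard error 0.30, adjusted p = 0.00121) in E5.

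**Figure D3:**
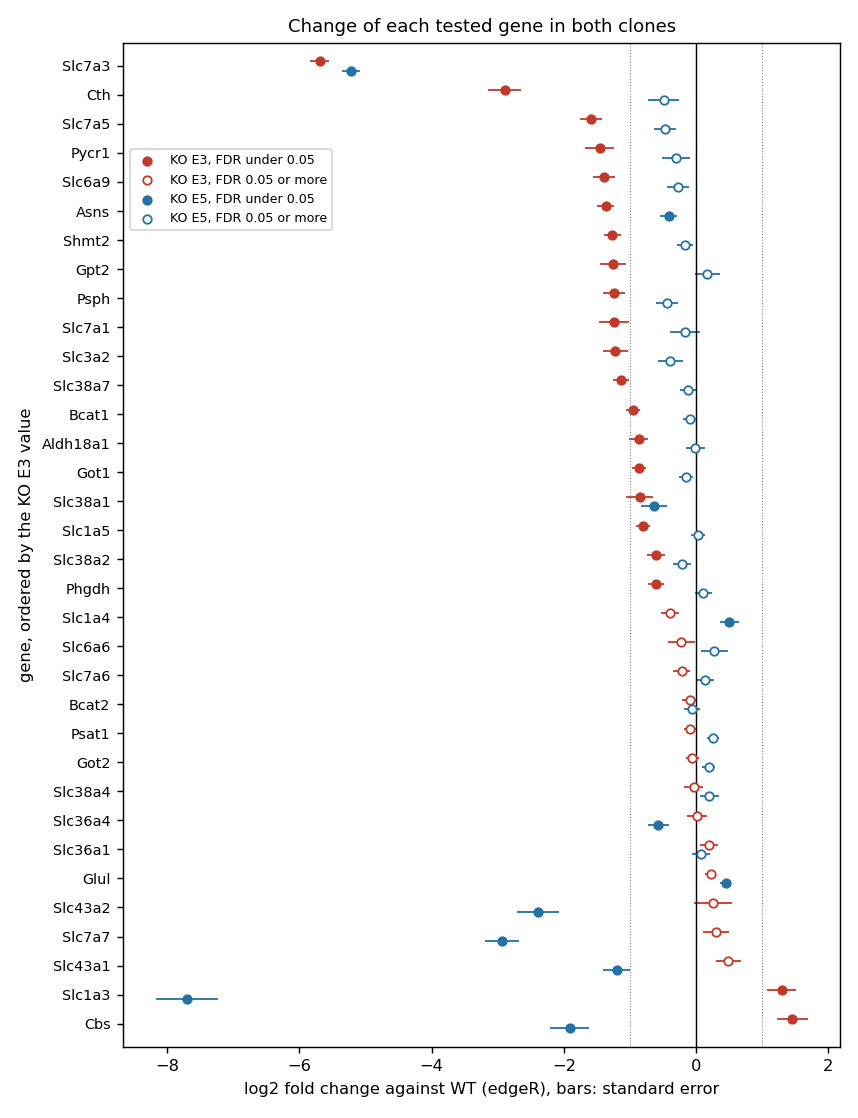
Log2 fold change against WT of each of the 34 tested genes in clone E3 (red) and clone E5 (blue), with standard errors as bars, filled points at an FDR under 0.05 and dotted lines at a log2 fold change of 1 in either direction. Red points are filled for 19 genes left of 0 and 2 right of it, blue points for 9 and 2, and the leftmost blue point, Slc1a3, rests on 2 counts in the E5 libraries.

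Other genes of amino acid handling were read by function. Beside the counts that follow, 14.7% of all genes tested were lower and 15.7% higher in E3, and 11.7% and 8.96% in E5. Of 29 further plasma membrane carriers 7 passed the filter, and 4 lower and 1 higher genes were past the FDR in E3, with a median log2 fold change of -0.36, against 0 lower and 0 higher in E5 (edgeR, 0 lower and 3 higher at an unadjusted p under 0.05, 2 passing with DESeq2). Slc7a11, which imports cystine in exchange for glutamate and pairs with Slc3a2, was at 85.3, 89.3 and 93.9 CPM in WT cells, 29.6, 20.4 and 13.3 CPM in clone E3 and 86.1, 96.5 and 103 CPM in clone E5. It was 4.24-fold lower in E3 (log2 -2.08, standard error 0.23, adjusted p = 0.000154) and 0.087 in E5. Slc6a15, a carrier of branched-chain amino acids and proline, was at 30.8 ± 1.05 CPM in WT cells, 7.49 ± 2.04 in E3 and 46.0 ± 9.07 in E5 (SD, n = 3 each), a log2 fold change of -2.04 in E3. Slc16a10, an aromatic amino acid carrier, was at -1.31 in E3 (adjusted p = 0.0014), and Slc7a4 rose in E3 by 1.32 (adjusted p = 0.00314).

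Carriers of lysosomes and mitochondria gave 2 lower and 2 higher of 14 in E3 and 2 lower and 2 higher for E5. That is 14.3% each way, beside 14.7% and 15.7% of all genes in E3 and 11.7% and 8.96% in E5. Further synthesis enzymes gave 3 lower and 3 higher of 13 in E3 against 1 lower and 0 higher in E5, and enzymes of amino acid breakdown 4 lower and 1 higher of 17 and 1 lower and 3 higher in E5. In E3 that is 23.1% lower and 23.1% higher of the former, and 23.5% and 5.88% of the latter. Among the latter Prodh, which degrades proline, was a DEG lower in E3 (-1.23, adjusted p = 4.59e-05) and at 0.19 in E5. Folate enzymes gave 4 lower and 2 higher of 10 in E3 (40% and 20%), and 1 lower and 1 higher for E5 (10% each). The members of that list past the fold threshold on the low side in E3 were mitochondrial enzymes, Aldh1l2 at -2.13, Mthfd2 at -1.44 and Mthfd1l at -1.18 (adjusted p = 0.00131, 1.89e-05 and 5.41e-05). In E5 these were -0.50, -0.45 and -0.16, of which Mthfd2 passed (adjusted p = 0.0148).

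Cytosolic aminoacyl-tRNA synthetases load amino acids onto tRNAs, and several are known ATF4 targets. Of 20, 14 lower and 0 higher were past the FDR in E3 (median -0.71) and 2 lower and 1 higher in E5 (median -0.018). That is 70% lower in E3, beside 14.7% of all genes, and 10% lower and 5% higher in E5, beside 11.7% and 8.96%. DEGs in E3 were Wars1 (-1.72), Lars1 (-1.19), Sars1 (-1.11) and Gars1 (-1.08), with adjusted p of 2.40e-05, 0.00015, 0.000553 and 8.01e-05. E5 was higher than E3 for 15 of the 20 and lower for 0, beside 14.7% and 17.2% of all genes.

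Atf4 and 15 genes known as its partners or targets were lower for 12 of 16 in E3 with 0 higher (median -1.15), and for 7 in E5 with 2 higher (median -0.46). That is 75% lower in E3, beside 14.7% of all genes, and 43.8% lower and 12.5% higher in E5, beside 11.7% and 8.96%. The 2 higher ones, named after their values were seen, were Ddit4 (0.56, adjusted p = 0.0235) and Stc2 (2.61, adjusted p = 6.88e-06). Atf4 mRNA was at 685, 739 and 735 CPM in WT cells, 416, 309.7 and 488 CPM in clone E3 and 624, 670.5 and 657 CPM in clone E5. The E3 libraries were lowest, with a log2 fold change of -0.83 (standard error 0.15, adjusted p = 0.002), and E5 was at -0.15 (adjusted p = 0.543). These values are of mRNA, and ATF4 protein was not measured here.

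Trib3, a pseudokinase induced by ATF4, was at 304, 330.3 and 323 CPM in WT cells, 62.2, 26.8 and 63.9 CPM in clone E3 and 129, 180.4 and 202 CPM in clone E5. It fell by 2.65 on the log2 scale in E3 and by 0.91 in E5 (adjusted p = 0.000155 and 0.0445), and Ddit3, a stress transcription factor, by 2.53 and 1.16 (adjusted p = 0.000519 and 0.0332). Atf3 changed by -3.81 and -2.06 and Ppp1r15a, a regulatory subunit of the eIF2alpha phosphatase, by -3.29 and -2.15 (adjusted p = 4.77e-06, 8.99e-05, 8.59e-06 and 6.47e-05). Chac1, a glutathione-degrading enzyme, was lower in E3 at -1.10 (adjusted p = 0.0228) and did not pass in E5, at 0.048 (adjusted p = 0.936), and the hormone gene Fgf21 -2.62 and -0.99 (adjusted p = 0.00296 and 0.148). Of 5 genes, the eIF2alpha kinases and Eif2s1, which encodes eIF2alpha itself, 0 lower and 1 higher passed in E3 and 0 in E5 (edgeR, 1 at an unadjusted p under 0.05, 1 with DESeq2). The gene higher in E3 was the kinase Eif2ak1 (0.32, adjusted p = 0.0335), and in E5 Eif2s1 was at 0.31 (adjusted p = 0.0536).

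Genes through which mTORC1, a growth-promoting kinase complex, senses amino acids gave 3 lower and 5 higher of 16 in E3, and 4 lower and 1 higher for E5. In E3 that is 18.75% and 31.25%, beside 14.7% and 15.7% of all genes. In E5 it is 25% and 6.25%, beside 11.7% and 8.96%. Sesn2, a leucine sensor and stress-induced inhibitor of mTORC1 that is also in the ATF4 list, was lower in both clones, at -1.44 and -0.69 (adjusted p = 5.84e-05 and 0.00517). Sesn3 rose in E3 by 1.25 (adjusted p = 0.0116) and had 0 counts in every E5 library, at least 101-fold lower than WT cells (against 3 counts per library). Rragd, a subunit of the Rag GTPases that recruit mTORC1, changed by -0.67 in E3 and 1.29 in E5 (adjusted p = 0.00333 and 5.35e-05).

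**Figure D4:**
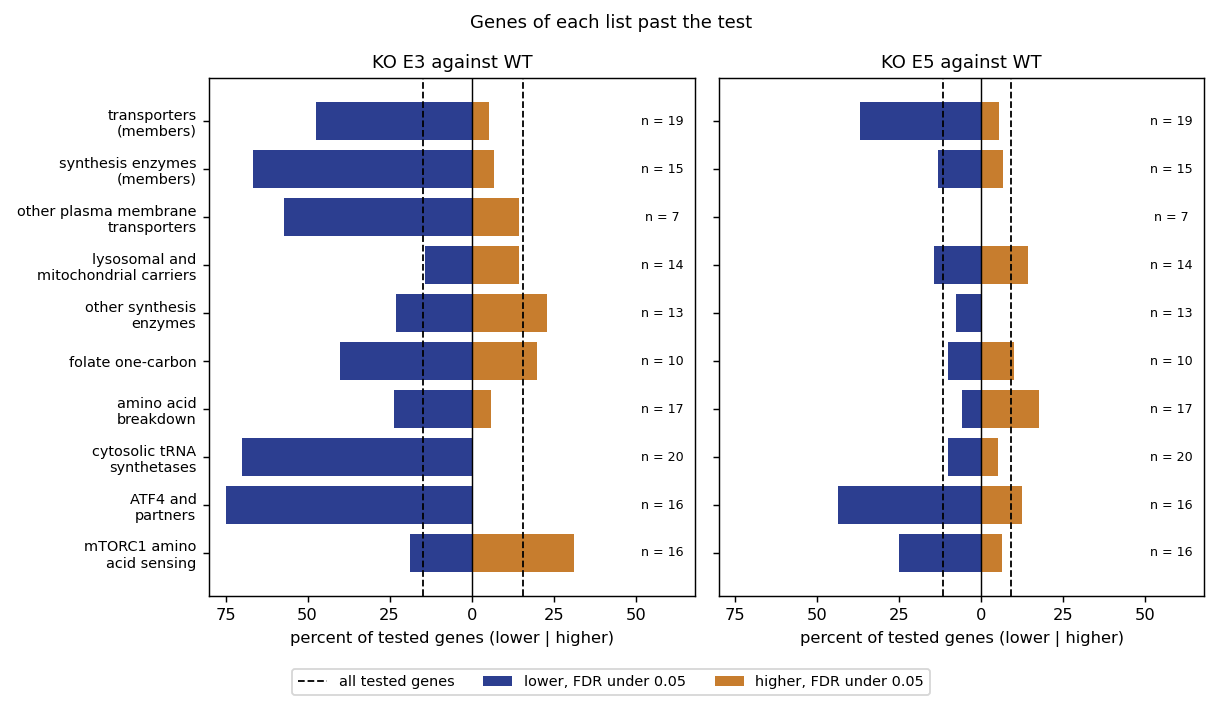
Percentage of the tested genes of each list that were lower (left of 0) or higher (right of 0) at an FDR under 0.05 in clone E3 and clone E5 against WT, with the number tested beside each bar and the share of all tested genes as dashed lines. In clone E3 the bars for enzymes, tRNA synthetases and the ATF4 list reach 66.7%, 70% and 75% lower, and in clone E5 the longest bars to the left are those of the ATF4 list at 43.8% and the carriers at 36.8%.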

How the data were processed

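RNA from 9 LLC libraries (3 for each of WT, KO E3 and KO E5, separate biological replicates by the study's methods) was sequenced as poly(A)-selected paired-end libraries. The authors trimmed the reads with Trimmomatic after FastQC, mapped them with STAR to GRCm39, and deposited unnormalized counts for each gene and library. Which tool counted the reads, whether it used strand and which annotation it read is not given in the sources used here, so genes that overlap others are uncertain.

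Counts were tested with edgeR 4.0.16 (R 4.3.3): filterByExpr (minimum count 10, minimum total 15), TMM scaling and a quasi-likelihood fit over all 9 libraries with the line as the only term. A gene passed at a Benjamini-Hochberg FDR under 0.05 over the 14593 genes tested, and was a DEG where log2 fold change also exceeded 1 in size. Standard errors are the log2 fold change over the root of the F statistic. Per-length levels use the union of all exons of a gene in GENCODE vM39, matched by gene ID. Totals were 44257404 to 55095219 counts per library, and intervals and floors cover counting error only. The biological coefficient of variation at the median dispersion of the fit was 14.2%. On simulated counts over 14350 genes, the E3 comparison recovered 84 of 99 genes changed by 1 on the log2 scale and 94 of 98 changed by 2, with 19 false calls, and the E5 comparison 72 of 98 and 93 of 99, with 8.

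Members and lists were chosen with earlier results of these data known. Members past the fold threshold in any comparison, and their pathway partners, are given per library, the rest by range. From each other list at most 4 DEGs with an average log2 CPM above 1 and the largest mean change are named, with Atf4, Ddit3, Trib3, Chac1 and Slc7a11 in any case. Shmt1 and Gpt are named as counterparts of Shmt2 and Gpt2. Ddit3 has a second row, at 0 in every library. Samtor and Slc66a4, of those lists, were not analysed here, and 1 further gene is not reported here. Alternatives were DESeq2 1.42.0, its size factors, upper-quartile scaling, other count filters, the pair of lines alone, a replicate block and leaving out each library.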

Additional observations from a re-analysis of the deposited data

Results flagged for a closer look

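For 13 members the 2 KO lines differed from each other by a direct test of clone E5 against clone E3 (edgeR's quasi-likelihood test, FDR under 0.05 and more than 1 on the log2 scale, 3 libraries against 3). Slc7a1, Slc38a7, Pycr1, Slc6a9 and Shmt2 passed the FDR but fell short of that fold under some alternatives. Values are E5 minus E3 on the log2 scale.

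Among carriers, clone E5 was lower for Slc1a3 (-8.99, adjusted p = 2.56e-07, on 2 counts in E5), Slc7a7 (-3.23), Slc43a2 (-2.64) and Slc43a1 (-1.69), and higher for Slc38a7 (1.02), Slc7a1 (1.07, adjusted p = 0.00518), Slc7a5 (1.12) and Slc6a9 (1.12). The adjusted p of the other carriers lay between 8.37e-06 for Slc7a7 and 0.000697 for Slc6a9. Among enzymes, E5 was lower for Cbs (-3.37) and higher for Shmt2 (1.09), Pycr1 (1.16), Gpt2 (1.44) and Cth (2.41), with adjusted p from 1.16e-05 for Cbs to 0.00274 for Pycr1. For Slc1a3 and Cbs every E3 library lay above and every E5 library below the WT libraries. Whether the edit, the clone or the culture sets these differences was not tested. Groups of 3 libraries were too small for a test of single outlying libraries.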

How the results depend on the processing

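All 520 values of the members past the fold threshold, computed under the alternatives that could test them, kept their direction and their side of the FDR, but some fell short of the fold threshold. These were Slc7a1 in E3 (-0.97, replicate 3 of E3 left out) and, between clones, Slc7a1 (lowest 0.81), Slc38a7 (0.94), Pycr1 (0.95), Slc6a9 (0.99) and Shmt2 (0.997). Under a stricter filter, 10 counts or more in each library, Slc7a7, Slc1a3 and Cbs were not tested, and over the 31 members left the E3 median was -0.85 with 1 member higher and 0 DEGs higher, E5 had 3 DEGs lower, and between clones the median was 0.69 with 3 members lower and 2 DEGs lower. Of all genes 16% were higher in E3 under that filter, and 16.4% lower between clones. With upper-quartile scaling 4 members were higher in E3, where 18.6% of all genes were, and between clones the median was 0.51 with 5 DEGs higher. The cause was not tested. With only the 2 lines compared, 6 members were higher and 13 lower in E5, where 23.5% and 23.3% of all genes passed. Slc7a5, Slc3a2, Slc38a2, Slc38a4, Slc6a6, Psat1, Psph and Got2 passed there beside the 11 members of the main fit. With DESeq2 no member lost its call against WT cells, Slc1a4 and Glul gained it in E3, and Slc7a5 and Psat1 in E5. Without a low-count filter none lost it either, Slc1a4 gained it in E3, and Slc7a5 and Psph in E5.

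Leaving out 1 library gave 2 to 5 members higher in E3, 1 to 6 higher and 6 to 12 lower in E5, and 5 to 9 DEGs higher between clones. The shares of all genes moved as well, over 9.57% to 21.8% higher in E3. In E5 they ran over 4.52% to 20.8% higher and 7.33% to 21.2% lower. For DEGs the share of all genes was not computed under the alternatives. Without replicate 3 of E3 the counts were 5 higher in E3 and 6 higher and 12 lower in E5, and without replicate 3 of E5 the DEGs higher between clones were 5. The members that lost their E5 call in some of these fits were Slc1a4, Slc38a1, Slc36a4 and Asns. Without replicate 3 of clone E3 none lost it, and Slc7a5, Slc38a2, Slc38a4, Slc6a6, Psat1, Psph and Got2 gained it. Slc7a5 also gained it without WT replicate 1, and Cth without replicate 3 of E5. In E3 no member lost its call in these fits. Slc43a1, Slc1a4, Slc36a1, Glul and Bcat2 gained an E3 call without replicate 3 of clone E3, and Slc7a6 without replicate 2. Slc1a4 also gained it without replicate 1 of clone E3 or WT replicate 1. The labels link same-numbered libraries only by that number. Their deviations from the mean of their line correlated at -0.17 to 0.047 between lines, and a shared culture day or batch was not tested. With a replicate block E5 had 1 member higher and 7 lower, without Slc1a4, Slc38a1 and Asns, and all 21 E3 calls were kept. Of all genes 6.56% were higher and 9.26% lower in E5 with that block. Depth limits Slc7a2, Slc7a8 and Slc1a1, which had too few counts to test, and the size of the fall of Slc1a3 in E5.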
